A study of Arabidopsis thaliana with 48 samples.

Results

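The B-box genes encode zinc-finger proteins that pass light signals to growth, pigment and flowering genes. Many of them act with or against the bZIP factor HY5, which promotes development in the light, and several are marked for destruction in the dark by the ubiquitin ligase COP1. In seedlings their transcripts also follow the circadian clock and the state of the chloroplast. The 10 B-box genes described here, of 28496 genes in every count table, were taken by their identifiers: COL1 (AT5G15850), COL2 (AT3G02380), BBX14 (AT1G68520), BBX15 (AT1G25440), BBX16 (AT1G73870), BBX17 (AT1G49130), BBX22 (AT1G78600, also called LZF1), BBX24 (AT1G06040, STO), BBX25 (AT2G31380, STH) and BBX32 (AT3G21150). They cover the structural classes of the family. COL1 and COL2 have a pair of B-boxes and a CCT domain, BBX14 to BBX17 have a single B-box and a CCT domain, BBX22, BBX24 and BBX25 have a pair of B-boxes and no CCT domain, and BBX32 has a single B-box and no CCT domain. The set is a part of the gene family and was chosen with earlier results of these data known. It was selected on 1 measured value, the counts of BBX16, which had been seen at 0 in the induced CNA-SmHOX32 seedlings. Since that contrast had been looked at when the genes were picked, all values of that line's induction are given here as a description without a test. All 10 genes passed the filter on low counts, which left 18909 genes.

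Messenger RNA was measured by 3'-end sequencing (QuantSeq), which reads the end of each polyadenylated transcript, in whole Arabidopsis thaliana seedlings of the T2 generation. There were 8 lines with an estradiol-inducible construct for a class III homeodomain-leucine zipper (HD-ZIPIII) transcription factor: CNA-KnC3HDZ_8m, CNA-KnC3HDZ, CNA-SmHOX32, CNA-PpHOX32, PHB-SDdelta, PHB, CNA-SDdelta and CNA, where CNA is CORONA and PHB is PHABULOSA and the longer names are modified or chimeric constructs whose suffixes are used as labelled. In each line the induced group was sprayed 10 times at day 9 with 50 µM β-estradiol in 1% DMSO with 0.005% Silwet L-77, and the mock group with DMSO and Silwet only. Seedlings grew at 22 °C in long days and were collected after 24 h, at day 10, as 3 replicate samples per group (48 libraries in 16 groups). Seedlings that carry no construct were not analysed here, so an effect of estradiol itself and an effect of the construct cannot be told apart, nor can a difference between lines be told apart from a difference between the times at which they were grown. In whole seedlings, fewer cells of a type and less RNA per cell cannot be told apart either.

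Library totals ran from 1808765 to 37222617 counts, with a median of 5944946.5, and 3 libraries per group limit the precision more than counting does for all but the least abundant genes. Transcript of the CNA gene (AT1G52150) was higher in induced than in mock seedlings of CNA, CNA-KnC3HDZ, CNA-KnC3HDZ_8m and CNA-PpHOX32 and that of PHB (AT2G34710) in PHB and PHB-SDdelta. In CNA-SDdelta the CNA gene averaged 23.6 CPM in induced and 11.9 CPM in mock seedlings (adjusted p = 0.216), so the label of that line is not checked by its transcript. CPM are counts per 1e+06 counts of the scaled library total.

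The sequence in front of the genes was read because several members moved together. All sequences are the RefSeq TAIR10.1 assembly, 250 bases before the annotated start, in the direction of the gene. BBX14 and BBX15 are shown because both were called lower in the same 4 lines, and capitals mark every run of at least 10 bases that both hold. BBX24 is shown for its motifs, in capitals, and BBX16 as the gene seen at 0 counts. None of the motifs searched is in the 250 bases of BBX16, or in those of any other member except COL2, BBX22 and BBX24.
BBX14 (chr1:25710990-25711239, minus strand): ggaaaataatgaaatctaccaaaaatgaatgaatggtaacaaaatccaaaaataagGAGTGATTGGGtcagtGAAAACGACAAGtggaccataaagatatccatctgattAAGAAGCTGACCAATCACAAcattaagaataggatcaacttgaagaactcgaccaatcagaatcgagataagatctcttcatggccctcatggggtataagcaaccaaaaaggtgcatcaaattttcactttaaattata
BBX15 (chr1:8935545-8935794, minus strand): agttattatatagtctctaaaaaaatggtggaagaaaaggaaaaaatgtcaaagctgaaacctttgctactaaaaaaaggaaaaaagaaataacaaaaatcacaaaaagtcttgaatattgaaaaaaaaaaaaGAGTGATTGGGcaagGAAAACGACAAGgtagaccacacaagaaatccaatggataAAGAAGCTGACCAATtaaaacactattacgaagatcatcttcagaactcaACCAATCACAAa
BBX16 (chr1:27778734-27778983, plus strand): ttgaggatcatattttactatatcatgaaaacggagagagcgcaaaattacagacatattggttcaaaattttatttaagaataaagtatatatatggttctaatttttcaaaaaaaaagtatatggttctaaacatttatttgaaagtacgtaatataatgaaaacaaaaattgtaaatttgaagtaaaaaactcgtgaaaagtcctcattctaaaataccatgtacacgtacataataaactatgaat
BBX24 (chr1:1829984-1830233, minus strand): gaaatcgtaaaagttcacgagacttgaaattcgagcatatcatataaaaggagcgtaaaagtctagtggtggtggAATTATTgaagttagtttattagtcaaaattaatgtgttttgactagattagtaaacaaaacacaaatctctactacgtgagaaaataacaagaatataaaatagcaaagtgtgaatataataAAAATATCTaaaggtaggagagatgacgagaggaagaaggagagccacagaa

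The fronts of BBX14 and BBX15 share 3 runs in the same order and at nearly the same spacing. GAGTGATTGGG starts 194 bases before the start of BBX14 and 117 before that of BBX15, GAAAACGACAAG starts at 178 and 102, and AAGAAGCTGACCAAT at 140 and 62. The 28008 windows of 250 bases in front of annotated genes were searched on both strands. The last of these runs is in 2 windows (0.00714%), the middle one in 7 (0.025%) and the first in 6 (0.0214%). The 2 windows are those of BBX14 and BBX15 themselves, and the other counts include them as well. ACCAATCACAA, also in capitals, lies at 131 and 12 bases before the starts and is in 0.1% of the windows. This share also includes the windows of BBX14 and BBX15. All these runs were picked because both windows hold them, so nothing is read from how rare they are. Over the 45 pairs of members, the longest run shared by the other pairs was 11 bases, against 15 for BBX14 and BBX15.

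3 motifs were searched on both strands. The G-box CACGTG, a site for bZIP factors such as HY5, is in none of the 10 windows of 250 bases and in 6.45% of all windows, the homeodomain-leucine zipper core AATNATT is in those of BBX22 and BBX24 and in 30.6% of all windows, and the evening element AAAATATCT, a site for clock proteins of the MYB family, is in those of COL2 and BBX24 and in 2.36% of all windows. With the first 50 transcribed bases added, AATNATT is also found in COL2 and BBX16 (33.8% of all windows) and CACGTG in BBX22 (7.66% of all windows). The motifs do not overlap each other in these windows. A match describes letters only and is not a site.

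Of these 10 B-box genes, 9 were called lower after induction in at least 1 line tested, and none passed the test upwards. Over the 7 lines tested, 37 of the 70 values (10 genes in 7 lines) were called lower and 0 higher, with an adjusted p under 0.05 in edgeR's quasi-likelihood test over all 18909 genes. Without adjustment, 44 values were lower and 2 higher at p under 0.05, and DESeq2's Wald test called 39 lower and 1 higher. The shares of all genes by these 2 measures are not given here. In CNA-KnC3HDZ_8m 6 members were called lower, where 3.51% of all genes tested were. In CNA-KnC3HDZ 6 members were called lower, against 2.11% of all genes, and in CNA-PpHOX32 4 members, against 3.92%. In PHB-SDdelta 5 members were called lower, against 3.44% of all genes, and in PHB 7 members, against 4.99%. In CNA-SDdelta 3 members were called lower, against 2.09% of all genes, and in CNA 6 members, against 3.96%. The share of members was thus above the background in each of the 7 lines, lowest in CNA-SDdelta. The members were chosen with earlier results of these data known, so this excess describes the 10 genes and not the family. Over these lines 52.9% of member values were called lower, and 16.7% of the values of the 18 other B-box genes tested. The median log2 fold change over the 70 values was -1.01, and over all genes in these lines -0.01. All 3 induced libraries lay below all 3 mock libraries in 43 of the 70 values and above them in 2. The share of all genes with such a separation was not computed, so nothing is read from this count. In CNA-SmHOX32, 6 members were past the same threshold downwards, beside 5.38% of all genes, and BBX22 upwards, beside 4.74%, and nothing is read from these counts.

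**Figure D1:**
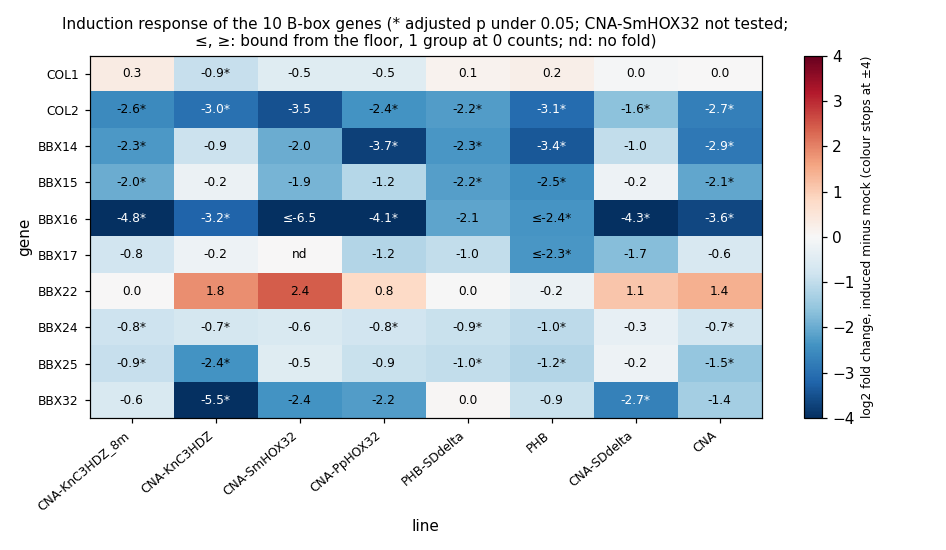
Log2 fold change, induced minus mock, of the 10 B-box genes (rows) in the 8 lines (columns), blue where lower in induced seedlings; an asterisk marks an adjusted p under 0.05 in the 7 lines tested. COL2, BBX14 and BBX16 are blue in every line, BBX22 is the only row with no asterisk. A bound sign marks a group at 0 counts, and nd a value with no fold.

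COL2, a close relative of the flowering regulator CONSTANS whose transcript peaks around dawn, fell in all 7 lines tested. In CNA-KnC3HDZ_8m it measured 13.3, 17.2 and 28.0 CPM in induced libraries, against 120, 57.8 and 161 CPM in mock libraries. In CNA-KnC3HDZ it measured 21.1, 23.1 and 21.0 CPM in induced libraries, against 181, 153 and 181 CPM in mock libraries. In CNA-PpHOX32 it measured 34.5, 43.3 and 10.2 CPM in induced libraries, against 154, 174 and 132 CPM in mock libraries. The induced and mock libraries did not overlap in any of these lines, and the same held in the other 5. In PHB-SDdelta COL2 measured 49.1, 41.2 and 49.0 CPM in induced libraries, against 234, 203 and 224 CPM in mock libraries. In PHB it measured 26.6, 15.1 and 13.5 CPM in induced libraries, against 187, 141 and 148 CPM in mock libraries. In CNA-SDdelta, the line where it was least reduced, it measured 47.2, 59.3 and 62.7 CPM in induced libraries, against 180, 171 and 173 CPM in mock libraries. In CNA it measured 21.5, 20.9 and 63.4 CPM in induced libraries, against 223, 281 and 210 CPM in mock libraries, with 1 induced library well above the others. The log2 fold changes ran from -3.07 ± 0.35 (SE) in PHB, an 8.40-fold lower level (adjusted p = 7.38e-10), to -1.63 ± 0.33 in CNA-SDdelta, a 3.09-fold lower level (adjusted p = 0.000468). These 7 calls held under every alternative and with each library left out. In CNA-SmHOX32 COL2 measured 17.6, 12.1 and 11.3 CPM in induced libraries and 130, 169 and 165 CPM in mock libraries.

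COL1, the other CONSTANS relative and COL2's nearest paralogue, did not share this drop. It was called lower in CNA-KnC3HDZ alone, where it measured 166, 180 and 163 CPM in induced libraries, against 316, 316 and 332 CPM in mock libraries (log2 fold change -0.92 ± 0.18, 1.89-fold lower, adjusted p = 0.000495). In CNA-KnC3HDZ_8m the libraries were separated the other way, with 217, 214 and 242 CPM in induced and 187, 176 and 175 CPM in mock seedlings (adjusted p = 0.411). In CNA-PpHOX32 all induced libraries (246, 205 and 252 CPM) lay below all mock libraries (406, 316 and 266 CPM), but the difference did not pass the test (adjusted p = 0.107), although DESeq2's Wald test called it (adjusted p = 0.0473). In CNA the means were 342 ± 92.4 CPM in induced and 337 ± 22.4 CPM in mock seedlings (SD, n = 3 each), and in CNA-SDdelta 307 ± 7.61 and 318 ± 25.6 CPM in induced and mock seedlings. In PHB-SDdelta they were 279 ± 28.9 CPM in induced and 252 ± 23.2 CPM in mock seedlings, and in PHB 209 ± 30.1 and 180 ± 37.5 CPM in induced and mock seedlings. In these 4 lines the induced and mock libraries of COL1 overlapped. In CNA-SmHOX32 it averaged 184 ± 5.32 CPM in induced and 258 ± 32.6 CPM in mock seedlings.

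BBX14 and BBX15, which are linked to the chloroplast regulator GLK1, were called in the same direction in 4 lines. Both fell in CNA-KnC3HDZ_8m, PHB-SDdelta, PHB and CNA, and neither passed the test in CNA-KnC3HDZ or CNA-SDdelta. In PHB BBX14 measured 11.1, 5.02 and 6.50 CPM in induced libraries, against 89.5, 69.0 and 87.0 CPM in mock libraries (log2 fold change -3.40 ± 0.47, adjusted p = 9.53e-08). In the same libraries BBX15 measured 15.1, 4.83 and 7.0 CPM after induction, against 61.0, 47.3 and 44.0 CPM in mock (log2 fold change -2.45 ± 0.42, adjusted p = 1.41e-05). In CNA BBX14 measured 15.9, 8.29 and 2.52 CPM in induced libraries, against 88.9, 62.4 and 48 CPM in mock libraries (-2.87 ± 0.45, adjusted p = 4.66e-06). All induced libraries of both genes were below all mock libraries in each of the 4 lines. BBX15 in CNA measured 9.62, 5.92 and 19.1 CPM in induced libraries, against 53.9, 50.1 and 46.0 CPM in mock libraries (-2.09 ± 0.41, adjusted p = 0.000233). In PHB-SDdelta BBX14 averaged 25.7 ± 13.8 CPM in induced and 127 ± 7.69 CPM in mock seedlings (-2.31 ± 0.43), and BBX15 17.5 ± 5.14 CPM in induced and 80.2 ± 24.1 CPM in mock seedlings (-2.20 ± 0.41). In CNA-KnC3HDZ_8m BBX14 averaged 12.8 ± 6.08 CPM in induced and 61.9 ± 8.52 CPM in mock seedlings (-2.31 ± 0.44), and BBX15 21.0 ± 9.58 CPM in induced and 81.5 ± 29.4 CPM in mock seedlings (-1.97 ± 0.41). The size of the drop was thus close for the pair in these 2 lines. These 8 calls held under every alternative and with each library left out.

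In CNA-KnC3HDZ BBX15 measured 39.1, 31.8 and 36.5 CPM in induced libraries, against 37.6, 48.5 and 39.4 CPM in mock libraries, which overlap (-0.23 ± 0.39). BBX14 there measured 38.9, 24.6 and 27.1 CPM in induced libraries, against 53.7, 54.3 and 57.1 CPM in mock libraries, which do not (-0.87 ± 0.41, adjusted p = 0.468). In CNA-SDdelta BBX15 averaged 53.8 ± 11.2 CPM in induced and 62.1 ± 6.34 CPM in mock seedlings (-0.20 ± 0.39), and BBX14 42.3 ± 12.3 CPM in induced and 83.9 ± 29.5 CPM in mock seedlings (-0.99 ± 0.41, adjusted p = 0.201). With only the libraries of the line itself in the fit, BBX14 was called lower in CNA-KnC3HDZ (adjusted p = 0.00909) and in CNA-SDdelta (adjusted p = 0.011). CNA-PpHOX32 separated the pair: BBX14 measured 8.55, 1.57 and 3.56 CPM in induced libraries, against 61.7, 78.8 and 60.4 CPM in mock libraries (-3.73 ± 0.47, adjusted p = 2.12e-08), while BBX15 measured 33.0, 15.7 and 23.2 CPM in induced libraries, against 70.1, 47.5 and 44.0 CPM in mock libraries (-1.15 ± 0.39, adjusted p = 0.0729). The call for BBX15 was gained without CNA-PpHOX32 induced replicate 1 (adjusted p = 0.0356). In CNA-SmHOX32 BBX14 averaged 20.3 ± 10.9 CPM in induced and 81.2 ± 30.6 CPM in mock seedlings, and BBX15 15.6 ± 11.7 CPM in induced and 57.3 ± 7.24 CPM in mock seedlings.

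**Figure D2:**
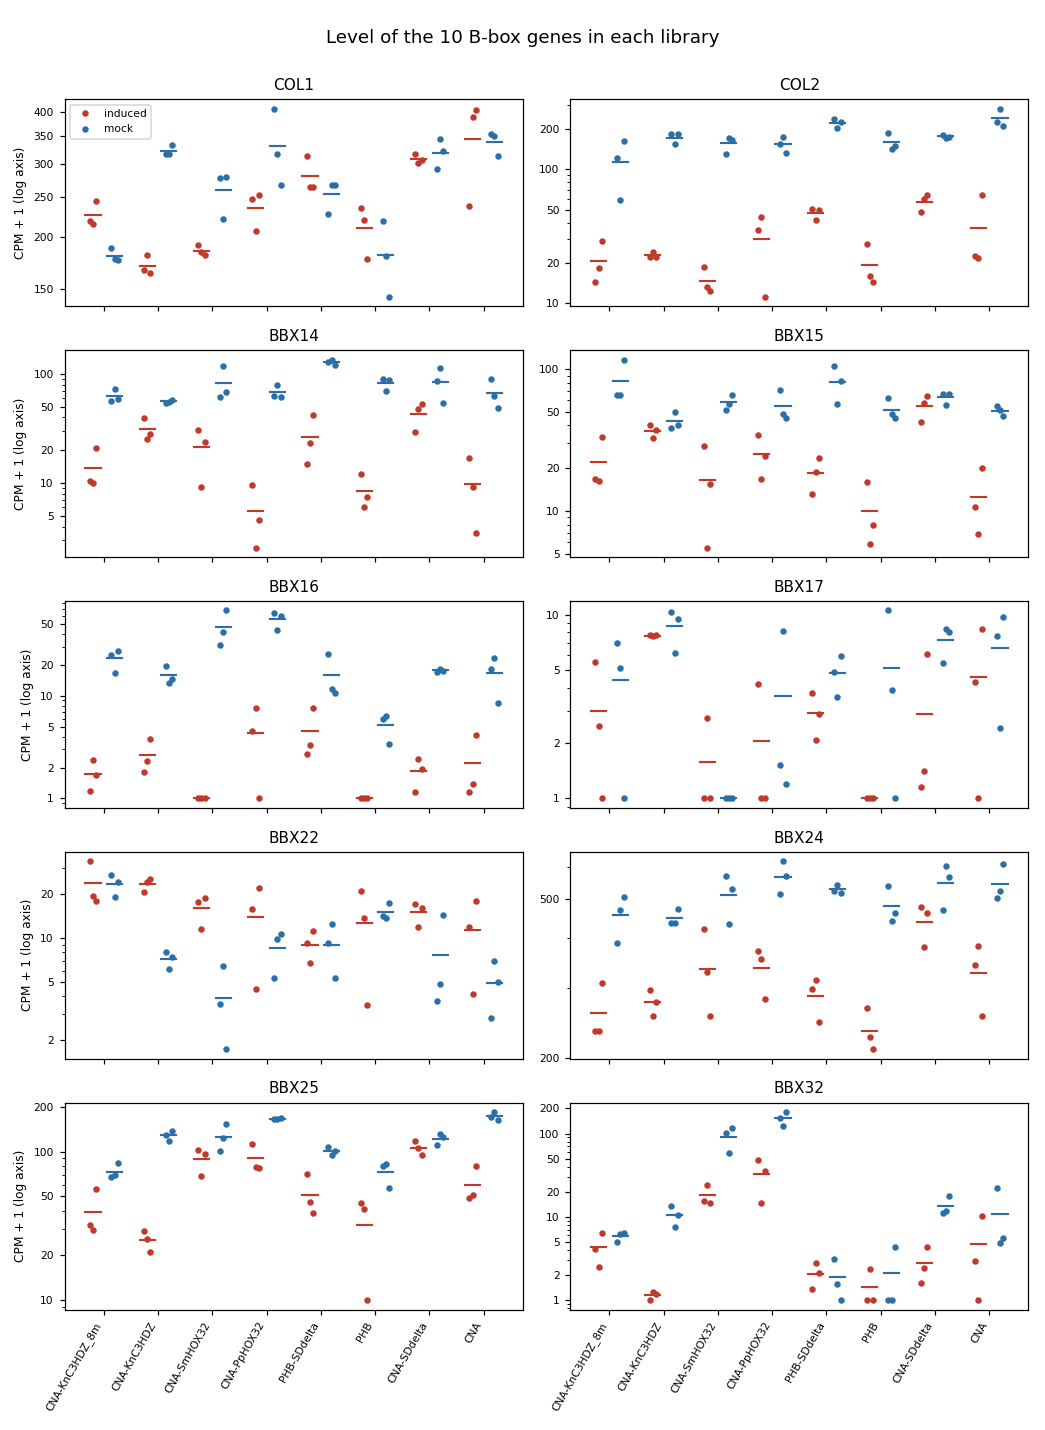
CPM + 1 on a log axis for each of the 10 B-box genes in the 8 lines, with induced libraries in red to the left of mock libraries in blue; points are libraries and bars are means of 3. The red and blue points of COL2, BBX14 and BBX16 are apart in every line, while those of BBX17 overlap in every line, and BBX32 in mock seedlings spans 0.894 CPM in PHB-SDdelta to 150.6 CPM in CNA-PpHOX32.

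BBX16, also known as COL7 and a regulator of branching and shade responses, was called lower in 6 of the 7 lines tested. The induced libraries lay below the mock libraries in all 8 lines, CNA-SmHOX32 included, by whose value the gene was picked. In PHB it had 0, 0 and 0 counts in induced libraries, against 58, 45 and 13 counts in mock libraries, or 4.23 ± 1.58 CPM. With a floor of 3 counts in each induced library this is at least 5.17-fold lower (adjusted p = 0.000152). The bound is weak because PHB had the lowest mock level and the highest induced floor (0.819 CPM) of the 8 lines. In CNA-KnC3HDZ_8m it measured 0.180, 1.37 and 0.683 CPM in induced libraries, against 24.2, 15.7 and 26.4 CPM in mock libraries (log2 fold change -4.77 ± 0.89, 27.3-fold lower, adjusted p = 8.49e-05). In CNA-SDdelta it measured 0.151, 1.44 and 0.921 CPM in induced libraries, against 16.1, 17.4 and 16.6 CPM in mock libraries (-4.33 ± 0.86, 20.1-fold lower, adjusted p = 0.000469). BBX16 was thus strongly reduced in CNA-SDdelta, where BBX15, BBX24 and BBX25 were not called. In CNA it measured 0.150, 0.395 and 3.15 CPM in induced libraries, against 17.2, 22.5 and 7.60 CPM in mock libraries (-3.63 ± 0.84, adjusted p = 0.00219). In CNA-PpHOX32 it measured 3.54, 6.59 and 0 CPM in induced libraries, against 62.5, 42.4 and 59.4 CPM in mock libraries (-4.07 ± 0.82, adjusted p = 0.000472). In CNA-KnC3HDZ it measured 0.818, 1.31 and 2.82 CPM in induced libraries, against 18.6, 12.2 and 13.7 CPM in mock libraries (-3.20 ± 0.80, adjusted p = 0.00907). This last call was lost without CNA-KnC3HDZ induced replicate 1 (adjusted p = 0.0849) or induced replicate 2 (adjusted p = 0.0847). In PHB-SDdelta BBX16 measured 1.72, 2.31 and 6.53 CPM in induced libraries, against 24.4, 10.6 and 9.60 CPM in mock libraries (-2.10 ± 0.76, adjusted p = 0.0906), and it was called without PHB-SDdelta induced replicate 3 (adjusted p = 0.0467) and under 4 of 6 alternatives.

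In CNA-SmHOX32, the value for which BBX16 was picked, the induced libraries had 0, 0 and 0 counts and the mock libraries 216, 121 and 364 counts, or 46.0 ± 18.8 CPM. Against the floor of 3 counts per library this is at least 87.5-fold lower, given as a description. With 0 counts in every induced library of both lines only bounds are known, and whether the changes differ cannot be told from them. BBX16 was still counted in 2 of the 3 induced libraries of CNA-PpHOX32 and in all 3 of the other 5 lines.

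BBX17 had few counts and could not be followed well. Its induced and mock libraries overlapped in all 8 lines. In PHB it had 0, 0 and 0 counts in induced libraries, against 113, 24 and 0 counts in mock libraries, at least 5.05-fold lower with the floor of 3 counts per library (adjusted p = 0.0285), although 1 mock library is as low as the induced ones. That call was lost when libraries were thinned to 1 total (adjusted p = 0.0994), without PHB induced replicate 1 (adjusted p = 0.108), 2 (adjusted p = 0.112) or 3 (adjusted p = 0.0779), and without PHB mock replicate 1 (adjusted p = 0.136). In CNA-KnC3HDZ its induced libraries were at 6.71, 6.62 and 6.76 CPM, against 9.37, 5.17 and 8.46 CPM in mock libraries. In CNA-SmHOX32 it had 0, 10 and 0 counts in induced libraries and 0 in all 3 mock libraries. In the other 5 lines its mean log2 fold change lay between -1.69 and -0.63 with no call.

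BBX22, which promotes seedling development in the light together with HY5, was not called in any of the 7 lines. In CNA-KnC3HDZ it measured 19.6, 23.2 and 24.2 CPM in induced libraries, against 7.02, 5.17 and 6.43 CPM in mock libraries, all induced above all mock (log2 fold change 1.85 ± 0.66, 3.59-fold higher, adjusted p = 0.152). In the quasi-likelihood test it had 2 of 7 unadjusted p under 0.05, both upwards, while DESeq2's Wald test called it in CNA-KnC3HDZ (adjusted p = 0.0341), as did the fit with only that line's libraries (adjusted p = 0.00042). In CNA it averaged 10.3 ± 6.93 CPM in induced and 3.92 ± 2.04 CPM in mock seedlings, with overlapping libraries (1.42 ± 0.66, adjusted p = 0.209). In CNA-KnC3HDZ_8m it averaged 22.7 ± 8.58 and 22.5 ± 4.01 CPM in induced and mock seedlings, and in PHB-SDdelta 8.02 ± 2.21 and 8.02 ± 3.55 CPM in induced and mock seedlings. In PHB the mean was lower, at 11.8 ± 8.84 CPM in induced and 14.1 ± 2.0 CPM in mock seedlings, with overlap (-0.22 ± 0.64, adjusted p = 0.907). In CNA-SmHOX32 BBX22 measured 16.7, 10.6 and 17.8 CPM in induced and 2.52, 5.44 and 0.734 CPM in mock libraries, all induced above all mock.

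BBX24, which holds back HY5 and favours growth in shade, was abundant and fell modestly and evenly. It was called lower in 6 of the 7 lines. The largest drop was in PHB, where it measured 266, 225 and 210 CPM in induced libraries, against 537, 439 and 461 CPM in mock libraries (log2 fold change -1.04 ± 0.18, 2.05-fold lower, adjusted p = 2.26e-05). In PHB-SDdelta it measured 297, 313 and 245 CPM in induced libraries, against 524, 541 and 516 CPM in mock libraries (-0.89 ± 0.18, adjusted p = 0.000363). In CNA-KnC3HDZ_8m it averaged 258 ± 42.6 CPM in induced and 454 ± 60.9 CPM in mock seedlings (-0.82 ± 0.18, adjusted p = 0.00117). None of these libraries overlapped between the groups. In CNA-PpHOX32 it averaged 335 ± 47.5 CPM in induced and 568 ± 53.1 CPM in mock seedlings (-0.76 ± 0.18, adjusted p = 0.00408), in CNA 325 ± 65.0 CPM in induced and 544 ± 57.3 CPM in mock seedlings (-0.74 ± 0.18, adjusted p = 0.00357) and in CNA-KnC3HDZ 275 ± 21.0 CPM in induced and 446 ± 21.0 CPM in mock seedlings (-0.70 ± 0.18, adjusted p = 0.0126). In CNA-SDdelta the libraries overlapped, at 476, 379 and 460 CPM in induced and 468, 604 and 567 CPM in mock libraries (-0.32 ± 0.18, adjusted p = 0.427). These smaller calls were less secure: CNA was lost without CNA induced replicate 3 (adjusted p = 0.059), CNA-PpHOX32 without CNA-PpHOX32 induced replicate 3 (adjusted p = 0.0587) and with only its own libraries in the fit (adjusted p = 0.0798), and CNA-KnC3HDZ without CNA-KnC3HDZ induced replicate 2 (adjusted p = 0.0984) or 3 (adjusted p = 0.0606) or mock replicate 3 (adjusted p = 0.0729). In CNA-SmHOX32 BBX24 averaged 334 ± 83.0 CPM in induced and 510 ± 71.3 CPM in mock seedlings.

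BBX25, the closest relative of BBX24 with a like role, fell most in CNA-KnC3HDZ. It measured 28.3, 24.7 and 20.1 CPM there in induced libraries, against 128, 116 and 137 CPM in mock libraries (log2 fold change -2.38 ± 0.30, 5.22-fold lower, adjusted p = 4.88e-08). In CNA it measured 47.8, 50.1 and 78.7 CPM in induced libraries, against 169, 183 and 162 CPM in mock libraries (-1.54 ± 0.29, adjusted p = 0.000112). In PHB it measured 44.4, 40.2 and 9.00 CPM in induced libraries, against 78.7, 81.1 and 56.0 CPM in mock libraries (-1.16 ± 0.29, adjusted p = 0.00386), and the low induced replicate 3 carries that call (-0.77 without it, adjusted p = 0.084). Induced libraries were below mock libraries in each of these lines. In PHB-SDdelta it averaged 50.3 ± 16.7 CPM in induced and 99.5 ± 6.05 CPM in mock seedlings (-0.98 ± 0.29, adjusted p = 0.0208), and in CNA-KnC3HDZ_8m 38.3 ± 14.8 CPM in induced and 72.2 ± 8.91 CPM in mock seedlings (-0.93 ± 0.29, adjusted p = 0.036). Leaving out 1 of 4 of the 6 libraries ended the PHB-SDdelta call (induced replicate 2 or 3, mock replicate 1 or 3, adjusted p between 0.0557 and 0.179), and leaving out any library except induced replicate 3 ended the CNA-KnC3HDZ_8m call (adjusted p between 0.0556 and 0.242). In CNA-PpHOX32 the libraries were separated, at 112, 77.8 and 76.7 CPM in induced and 163, 164 and 167 CPM in mock libraries, just outside the threshold (-0.89 ± 0.28, adjusted p = 0.0513), and called without CNA-PpHOX32 induced replicate 1 (adjusted p = 0.0252) and under 4 of 6 alternatives. In CNA-SDdelta it averaged 105 ± 11.9 CPM in induced and 121 ± 10.7 CPM in mock seedlings (-0.20 ± 0.28, adjusted p = 0.836), with overlap. In CNA-SmHOX32 it averaged 87.9 ± 18.2 CPM in induced and 124 ± 26.2 CPM in mock seedlings, with overlap.

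BBX32, a single-B-box protein that blocks other B-box proteins and HY5, was nearly lost in CNA-KnC3HDZ. It had 0, 10 and 1 counts in induced libraries, against 91, 50 and 57 counts in mock libraries, or 0.152 ± 0.137 against 9.60 ± 2.95 CPM (fitted log2 fold change -5.47 ± 1.02, adjusted p = 0.000201). The induced mean is below the floor of 0.378 CPM that 3 counts per library give, so the size of the change, and of the response difference drawn from it, is uncertain. It was a call that every alternative and every left-out library kept. In CNA-SDdelta it measured 0.605, 1.44 and 3.38 CPM in induced libraries, against 10.2, 10.7 and 16.6 CPM in mock libraries (-2.72 ± 0.83, adjusted p = 0.039). This call is fragile: DESeq2 did not make it (adjusted p = 0.0838), and it was lost without induced replicate 1 or 2 or any mock replicate of CNA-SDdelta (adjusted p between 0.0506 and 0.214). In CNA-PpHOX32 the groups were separated at a high level, with 46.8, 13.5 and 34.9 CPM in induced and 150, 121 and 180 CPM in mock libraries (-2.23 ± 0.75, adjusted p = 0.0683, called under 4 of 6 alternatives). In CNA-KnC3HDZ_8m it averaged 3.33 ± 2.00 CPM in induced and 4.87 ± 0.785 CPM in mock seedlings, in CNA 3.73 ± 4.87 and 9.92 ± 9.92 CPM in induced and mock seedlings, and in PHB and PHB-SDdelta at most 1.12 CPM in either group, all with overlap. In CNA-SmHOX32 it averaged 17.1 ± 5.41 CPM in induced and 90.1 ± 29.7 CPM in mock seedlings.

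Whether the response of a member differed between lines was tested as an interaction for 6 pairs of lines, 60 values in all, and 4 were called. Of these, 3 lie between CNA-KnC3HDZ_8m and CNA-KnC3HDZ, where 3.93% of all genes were called, and 1 between CNA-KnC3HDZ and CNA, where 1.53% were. COL1 was raised in mean by induction in CNA-KnC3HDZ_8m (225 ± 15.5 CPM induced, 179 ± 6.76 CPM mock) and lowered in CNA-KnC3HDZ (170 ± 8.89 CPM induced, 321 ± 9.39 CPM mock), a difference in log2 response of 1.24 ± 0.26 (adjusted p = 0.00067) that held under every alternative and with each library left out. BBX25 fell less in CNA-KnC3HDZ_8m than in CNA-KnC3HDZ, by 1.45 ± 0.41 (adjusted p = 0.024). The BBX25 difference was lost without CNA-KnC3HDZ_8m induced replicate 3 (adjusted p = 0.182) or mock replicate 1 or 2, or CNA-KnC3HDZ induced replicate 2 or 3 or mock replicate 3 (adjusted p between 0.0552 and 0.0836). BBX32 fell less in CNA-KnC3HDZ_8m as well, by 4.85 ± 1.31 (adjusted p = 0.0161), a difference lost after thinning (adjusted p = 0.128), without CNA-KnC3HDZ_8m induced replicate 3 (adjusted p = 0.0599) and without CNA-KnC3HDZ induced replicate 2 (adjusted p = 0.0501). Mock levels of these genes also differed between the lines: BBX25 averaged 72.2 ± 8.91 CPM in mock CNA-KnC3HDZ_8m and 127 ± 10.4 CPM in mock CNA-KnC3HDZ, and BBX32 4.87 ± 0.785 and 9.60 ± 2.95 CPM in mock CNA-KnC3HDZ_8m and mock CNA-KnC3HDZ (SD, n = 3 each), a description without a test.

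The remaining called difference was COL1 in CNA-KnC3HDZ against CNA, -0.94 ± 0.26 (adjusted p = 0.0399), where the median of all genes was 0.10. It was lost without the low-count filter (adjusted p = 0.18), with the replicate block (adjusted p = 0.0862), and in 11 of the 12 fits that leave out 1 library (adjusted p between 0.0676 and 0.143), CNA-KnC3HDZ and CNA libraries alike, all but CNA induced replicate 1. In CNA-KnC3HDZ against CNA 3 members were lower and 2 higher at an unadjusted p under 0.05, and DESeq2 called 1 lower and 2 higher. BBX14 (2.00 ± 0.60, adjusted p = 0.0769), BBX15 (1.86 ± 0.56, adjusted p = 0.0788) and BBX32 (-4.11 ± 1.27, adjusted p = 0.0900) lay near the threshold by edgeR. CNA-SDdelta against CNA gave 0 calls by edgeR, beside 0.106% of all genes, and 0 by DESeq2. It had 4 unadjusted p under 0.05, all towards a smaller drop. PHB-SDdelta against PHB gave 0 by edgeR, beside 0.111% of all genes, and 0 by DESeq2, with 2 unadjusted p under 0.05. PHB against CNA gave 0 by edgeR, beside 1.44% of all genes, and 0 by DESeq2, with 2 unadjusted p under 0.05. CNA-PpHOX32 against CNA gave 0 by edgeR, beside 0.783% of all genes, and 0 by DESeq2, with 0 unadjusted p under 0.05. The share of all genes at an unadjusted p under 0.05 was not computed, so nothing is read from the unadjusted counts. A missing call does not show that the responses were alike.

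**Figure D3:**
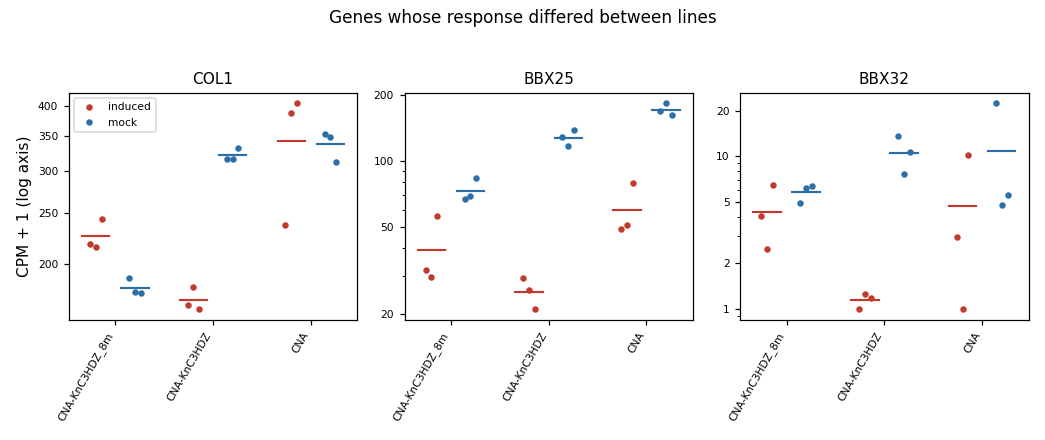
CPM + 1 on a log axis of COL1, BBX25 and BBX32 in CNA-KnC3HDZ_8m, CNA-KnC3HDZ and CNA, induced libraries in red to the left of mock libraries in blue, with the mean of 3 as a bar. Induced COL1 lies above mock in CNA-KnC3HDZ_8m and below it in CNA-KnC3HDZ, and all 3 induced libraries of BBX32 are near 0 CPM in CNA-KnC3HDZ, while 1 of 3 is at 0 in CNA.

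The levels of some members differed between lines already in mock seedlings. Of 70 mock comparisons with mock CNA (10 genes in 7 lines), 3 were called higher and 8 lower. CNA-KnC3HDZ_8m had 4 called members, beside 4.44% of all genes, and PHB had 3, beside 4.08%. CNA-SmHOX32 had 2, beside 8.68%, PHB-SDdelta and CNA-PpHOX32 had 1 each, beside 2.82% and 1.76%. CNA-KnC3HDZ and CNA-SDdelta had 0 by edgeR, beside 0.138% and 0.0529% of all genes. Both had 0 by DESeq2 and 0 unadjusted p under 0.05. BBX32 accounted for 4 of the 11 called values, and BBX14, BBX15, BBX16 and BBX24 for 0.

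BBX32 differed widely between the mock lines. From low to high the mock means were 0.894 CPM in PHB-SDdelta, 1.12 in PHB, 4.87 in CNA-KnC3HDZ_8m, 9.60 in CNA-KnC3HDZ, 9.92 in CNA, 12.5 in CNA-SDdelta, 90.1 in CNA-SmHOX32 and 150.6 CPM in CNA-PpHOX32. The lowest of these means rests on 13, 2 and 0 counts. Neighbours in this order overlapped in their libraries between PHB-SDdelta and PHB, and among CNA-KnC3HDZ, CNA and CNA-SDdelta, and were apart elsewhere. Against mock CNA, BBX32 was higher in mock CNA-PpHOX32 (log2 difference 3.90 ± 0.81, adjusted p = 0.0018) and mock CNA-SmHOX32 (3.17 ± 0.79, adjusted p = 0.00547, where the median of all genes was -0.14). It was lower in mock PHB (-3.43 ± 0.89, adjusted p = 0.0115) and mock PHB-SDdelta (-3.25 ± 0.91, adjusted p = 0.0315). Mock CNA itself was uneven, at 21.4, 3.84 and 4.56 CPM, a range that spans the libraries of mock CNA-KnC3HDZ_8m (3.97 to 5.41 CPM). Without CNA mock replicate 1 both lower calls were lost (-2.17, adjusted p = 0.282 for PHB and -1.99, adjusted p = 0.422 for PHB-SDdelta), and without CNA mock replicate 2 the CNA-SmHOX32 call was lost (adjusted p = 0.0548). With only the compared lines in the fit both lower calls were lost as well (adjusted p = 0.429 for PHB and 0.189 for PHB-SDdelta). The PHB call was also lost after thinning (adjusted p = 0.0719) and without PHB mock replicate 1 (adjusted p = 0.116) or 2 (adjusted p = 0.132), and the PHB-SDdelta call without PHB-SDdelta mock replicate 2 (adjusted p = 0.176) or 3 (adjusted p = 0.207). Only the CNA-PpHOX32 excess of BBX32 was kept with each library left out.

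COL1 and BBX25 were both lower in the mock seedlings of the same 2 lines. COL1 averaged 180 ± 37.5 CPM in mock PHB and 179 ± 6.76 CPM in mock CNA-KnC3HDZ_8m, against 337 ± 22.4 CPM in mock CNA (log2 differences -0.91 ± 0.18 in both, adjusted p = 0.000506 and 0.000479). BBX25 averaged 71.9 ± 13.9 CPM in mock PHB and 72.2 ± 8.91 CPM in mock CNA-KnC3HDZ_8m, against 171 ± 11 CPM in mock CNA (-1.25 ± 0.29 in both, adjusted p = 0.00278 and 0.00297). These 4 calls held with each library left out. In mock CNA-KnC3HDZ_8m BBX22 was higher, at 22.5 ± 4.01 CPM against 3.92 ± 2.04 CPM in mock CNA (2.52 ± 0.68, adjusted p = 0.0154), lost without CNA mock replicate 1 (adjusted p = 0.13) or 3 (adjusted p = 0.0683) or CNA-KnC3HDZ_8m mock replicate 1 (adjusted p = 0.0534). COL2 there was lower, at 113 ± 51.8 CPM against 238 ± 38.2 CPM in mock CNA (-1.08 ± 0.32, adjusted p = 0.036), lost without any CNA mock replicate or without CNA-KnC3HDZ_8m mock replicate 1 or 2 (adjusted p between 0.0551 and 0.33), with DESeq2 size factors (adjusted p = 0.0615) or with only the compared lines (adjusted p = 0.0658). BBX17 had 0 counts in all mock libraries of CNA-SmHOX32 and 5.60 ± 3.76 CPM in mock CNA (adjusted p = 0.0212), lost without any of the CNA-SmHOX32 mock replicates (adjusted p between 0.0568 and 0.0748) or with only the compared lines (adjusted p = 0.109).

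BBX16 ran from 4.23 ± 1.58 CPM in mock PHB to 54.8 ± 10.9 CPM in mock CNA-PpHOX32, 12.9-fold, with mock PHB below and mock CNA-SmHOX32 and CNA-PpHOX32 above the other 5 lines, among which neighbours overlapped. None of its mock differences from CNA was called. The range over mock lines was small for BBX24 (1.27-fold, 446 CPM in CNA-KnC3HDZ to 568 CPM in CNA-PpHOX32) and for BBX15 (1.95-fold, 41.9 CPM in CNA-KnC3HDZ to 81.5 CPM in CNA-KnC3HDZ_8m), where all neighbours overlapped. For BBX14 it was 2.32-fold, and only mock PHB-SDdelta, at 127 CPM, stood apart from its neighbour.

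Of the 22 other B-box genes of Arabidopsis, 18 passed the low-count filter. Over the 7 lines tested they gave 126 values, of which 21 (16.7%) were called lower and 4 (3.17%) higher, beside 3.43% and 3.01% for all genes. COL3, which promotes light responses with COP1 as its antagonist, was lower in 6 lines, with 121 ± 30.4 CPM in induced and 345 ± 29.7 CPM in mock CNA (adjusted p = 7.78e-06). BBX28, which binds HY5 and blocks it, was lower in the same 6 lines, all but CNA-KnC3HDZ, with 61.2 ± 8.78 CPM in induced and 179 ± 9.91 CPM in mock PHB (adjusted p = 4.6e-05). BBX30, a microprotein that binds CONSTANS, was lower in CNA, CNA-SDdelta, CNA-KnC3HDZ and CNA-PpHOX32, with 7.64 ± 2.90 CPM in induced and 65.4 ± 14.6 CPM in mock CNA-KnC3HDZ (adjusted p = 8.48e-09). The near relatives BBX18 and BBX19 were lower in CNA and CNA-KnC3HDZ, and BBX18 also in CNA-PpHOX32. The 4 higher calls were COL4 in CNA-KnC3HDZ_8m, BBX7 in PHB and PHB-SDdelta and BBX11 in PHB-SDdelta.

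**Figure D4:**
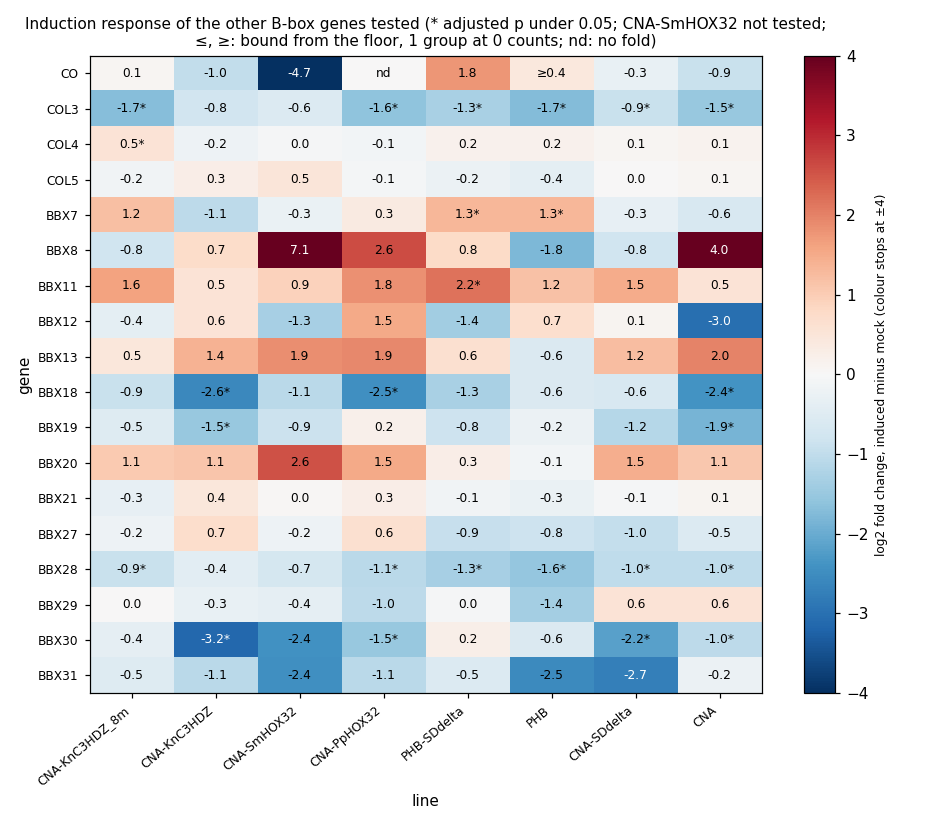
Log2 fold change, induced minus mock, of the 18 other B-box genes that passed the filter (rows) in the 8 lines (columns), with an asterisk for an adjusted p under 0.05 in the 7 lines tested. COL3 and BBX28 carry 6 asterisks each, all blue, while COL5, BBX21 and BBX29 carry none.

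Among 12 genes for partners and upstream regulators of B-box proteins, 12 of 84 values (14.3%) were called lower and 0 higher, beside 3.43% and 3.01% for all genes. HY5 was lower in CNA-KnC3HDZ_8m (10.2 ± 3.29 CPM induced, 41.4 ± 5.82 CPM mock, adjusted p = 0.00126), PHB-SDdelta (15.4 ± 2.71 CPM induced, 52.8 ± 13.5 CPM mock) and PHB (15.1 ± 3.32 CPM induced, 49.5 ± 9.86 CPM mock), and its paralogue HYH in CNA-KnC3HDZ (23.3 ± 9.23 CPM induced, 95.1 ± 5.14 CPM mock, adjusted p = 7.03e-05). The phytochrome gene PHYA was lower in CNA-KnC3HDZ_8m and PHB, the blue-light receptor gene CRY1 in PHB and CNA, SPA1 in CNA-KnC3HDZ_8m and CNA-KnC3HDZ, and SPA3, which like SPA1 works with COP1, in CNA-KnC3HDZ and CNA-SDdelta. COP1, DET1, PHYB, CRY2, SPA2 and SPA4 were not called in any of the 7 lines. Of the 7 tested genes for flavonoids, photoprotection and flowering, 1 of 49 values (2.04%) was called, F3H in PHB, upwards (7.43 ± 10.5 CPM induced, 0.587 ± 0.525 CPM mock, adjusted p = 0.0269). Of all genes 3.01% were called higher, so this count is not above the background. Of the 8 clock genes tested, CCA1 was lower in CNA-KnC3HDZ, CNA-PpHOX32, PHB and CNA, LHY in CNA-KnC3HDZ_8m, CNA-KnC3HDZ, CNA-PpHOX32, PHB-SDdelta and PHB, while TOC1 was higher in CNA-KnC3HDZ_8m and CNA-PpHOX32 and ELF4 in PHB-SDdelta and PHB. Of the 56 clock values, 16.1% were called lower and 7.14% higher, beside 3.43% and 3.01% for all genes. CCA1 and LHY peak at dawn and TOC1 and ELF4 in the evening, and since COL2 is a morning gene their values stand beside its drop, whose relation to them was not tested.

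Shoot marker transcripts fell in sum after induction, as did the B-box values that were called. The summed level of 4 shoot markers (RBCS1A, CAB3, LHCB2.1 and STM) was 3422 CPM (3108 to 3788) in induced and 11240 CPM (10268 to 12788) in mock CNA-KnC3HDZ_8m, and 8168 CPM (7036 to 9036) in induced and 15654 CPM (14741 to 16970) in mock CNA-SDdelta, the line with the fewest members called. Induced and mock sums did not overlap in any of the 8 lines. Over the 7 lines tested, 19 of 28 marker values (67.9%) were called lower and 0 higher, beside 3.43% and 3.01% for all genes. The calls were RBCS1A and LHCB2.1 in every line and CAB3 in 5, and STM was called in none. None of the 4 genes was at 0 in all libraries of any group. Of 4 root markers (CASP1, TIP2-3, PRP3 and COBL9) 3 were tested, and 3 of 21 values (14.3%) were called lower and 0 higher, beside the same shares of all genes. All of them were CASP1, in CNA-KnC3HDZ_8m, CNA-PpHOX32 and PHB. The root sum was 47.2 CPM (38.2 to 55.3) in induced and 87.1 CPM (76.6 to 95.01) in mock CNA-KnC3HDZ_8m, without overlap, and 128 CPM (121 to 138) in induced and 134 CPM (81.9 to 174) in mock CNA-SDdelta, with overlap. PRP3 was at 0 in all 3 induced libraries of CNA, CNA-SDdelta, CNA-SmHOX32 and CNA-PpHOX32. The part of the marker changes in the drop of the B-box genes was not tested.

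**Figure D5:**
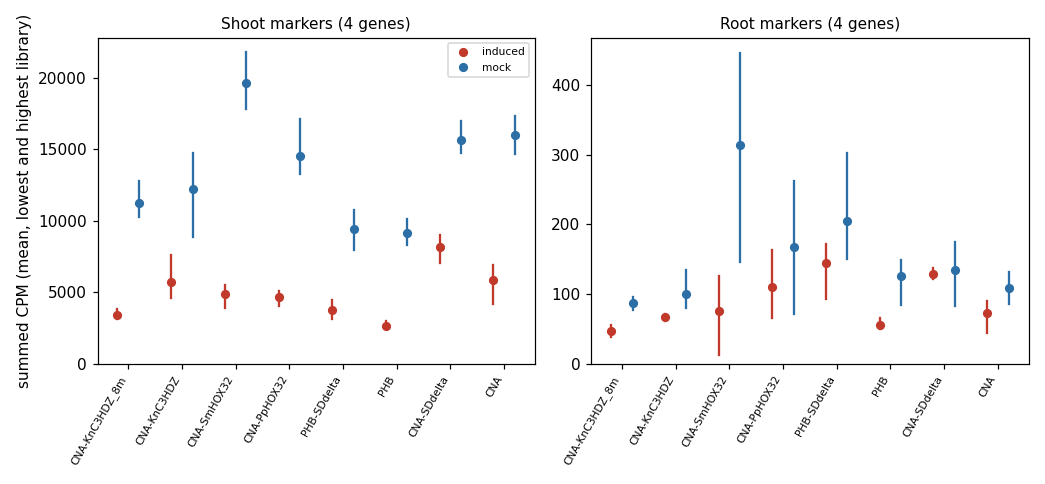
Summed CPM of the shoot markers (left) and root markers (right) in the 8 lines, induced in red to the left of mock in blue; points are means of 3 libraries and lines run from the lowest to the highest library. Shoot sums of induced seedlings lie below those of mock seedlings in every line, with the nearest libraries in CNA-KnC3HDZ (highest induced 7635, lowest mock 8849 CPM), while root sums overlap in several lines.

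By the likeness of their group means to those of BBX16 (Pearson r of log2 CPM over the 16 groups, a description, since the groups share the induction and the lines), the 5 closest of all genes were LIL3:1 (AT4G17600, r = 0.96), AT5G08050 (0.95), HEMA1 (AT1G58290, 0.95), ATPD (AT4G09650, 0.93) and LrgB (AT1G32080, 0.93). HEMA1 makes the first committed enzyme of chlorophyll synthesis and ATPD a subunit of the chloroplast ATP synthase. LIL3:1, a thylakoid protein of chlorophyll synthesis, averaged 15.5 ± 1.75 CPM in induced and 40.6 ± 6.97 CPM in mock CNA-KnC3HDZ_8m. Over the 48 libraries 2 of the 5 remained among the closest 5, and with a smaller prior count 4. The 16 groups include induced CNA-SmHOX32, the value by which BBX16 was picked. Without the groups of that line (14 groups, an alternative chosen after seeing the data), 3 of the 5 remained among the closest 5 (LIL3:1, AT5G08050 and HEMA1, r = 0.95, 0.94 and 0.94), and COL2 had r = 0.86 and rank 85. Over all 16 groups, among the members COL2 was closest to BBX16 (r = 0.88, rank 33 of all genes), followed by BBX24 (0.82), BBX15 (0.80) and BBX14 (0.75), and BBX22 ran the other way (-0.53). COL2 and BBX24 had r = 0.91, and BBX14 and BBX15 r = 0.86.

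Several members share ground with a neighbouring gene, and since the counting is not stated to use strand, reads from overlapping genes could not be told apart. Genes on the opposite strand overlap COL1, COL2, BBX14, BBX17, BBX24 and BBX25, and AT3G21140 overlaps BBX32 on its own strand, while BBX15, BBX16 and BBX22 have no overlapping gene in RefSeq. AT2G31390, next to BBX25, was higher in induced CNA-SDdelta (33.1 ± 15.9 CPM induced, 10.6 ± 4.80 CPM mock, adjusted p = 0.0292), where BBX25 was not called, and none of the other neighbours tested was called in the 7 lines. AT5G15845, which overlaps COL1, averaged 9.99 ± 4.18 CPM in induced and 1.12 ± 0.880 CPM in mock CNA-KnC3HDZ (log2 fold change 3.14, adjusted p = 0.183). COL1 was called lower in that line, and a relation between the changes was not tested. AT3G02390, next to COL2, averaged 4.86 CPM in induced and 3.73 CPM in mock CNA-KnC3HDZ, AT2G31390 35.3 CPM in induced and 29.1 CPM in mock CNA-KnC3HDZ, and AT3G21140, next to BBX32, 17.2 CPM in induced and 14.3 CPM in mock CNA-KnC3HDZ. AT3G02370, the other neighbour of COL2, averaged at most 1.71 CPM, and AT1G68510 and AT1G49120, next to BBX14 and BBX17, at most 0.169 CPM, in any group of the 7 lines tested. The neighbour of BBX24 was not analysed here. Over the last 500 exonic bases, where these reads fall, the longest run shared between a member and any other B-box gene was 23 bases, between COL1 and COL4.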

How the data were processed

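The deposited tables hold raw read counts per gene from STAR, per the file headers. The submitters' processing notes name Trimmomatic, STAR, featureCounts and DESeq2 and the TAIR10 build. Versions, the annotation and the strand setting are not given in the sources used here, and sequences and gene positions come from RefSeq TAIR10.1. The counts of all 48 libraries were fitted together with edgeR 4.0.16 in R 4.3.3 (TMM scaling, filterByExpr, quasi-likelihood test), 1 coefficient per group, and p-values were adjusted by Benjamini-Hochberg over 18909 genes within each comparison, with 0.05 as the threshold. Fold changes are log2 of induced over mock, or first over second line, and their SE, approximate, is the fold change over the root of its F statistic. CPM are counts per 1e+06 of the TMM-scaled total, and the floor is 3 counts per library, which covers counting error only.

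The members and gene lists were chosen with earlier results of these data known. The genes named are the 10 members, the called members of the lists and the 5 genes with the highest r to BBX16. The search for runs shared by BBX14 and BBX15 was added after their values were seen. The labels give 3 biological replicates per group without naming plants or cultures. Equal replicate numbers did not pair the libraries: in 0 of 24 pairs was the correlation of deviations over 0.1 (-0.0253 to 0.0778). The test was checked on simulated data in which 200 well-counted genes changed by 2 on the log2 scale in induced CNA. The groups did not otherwise differ there, and genes with few counts, such as BBX17, were not among those changed. The outcome of that check is not reported here. Alternatives were DESeq2 1.42.0 size factors and Wald test, no low-count filter, a replicate block, thinning to 1808765 counts, only the compared lines, and each library left out. A further root marker is not reported here, and the root sums and counts leave it out.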

Additional observations from a re-analysis of the deposited data

Results flagged for a closer look

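The response of COL1 differed between lines in tested and untested pairs. It was more negative in CNA-KnC3HDZ than in CNA by -0.941 (log2), and 1.24 higher in CNA-KnC3HDZ_8m than in CNA-KnC3HDZ, both past the threshold of the interaction test. All induced libraries of COL1 lay above the mock libraries in CNA-KnC3HDZ_8m and below them in CNA-PpHOX32 and in CNA-SmHOX32, with differences in log2 response of 0.814 and 0.808, which were not tested.

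BBX25 and BBX32 fell less in CNA-KnC3HDZ_8m than in CNA-KnC3HDZ, by 1.45 and 4.85 on the log2 scale, past the threshold of the interaction test. In CNA-KnC3HDZ_8m the change of BBX32 itself did not pass the test.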

How the results depend on the processing

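Counts of called members stayed within 1.5 times under the alternatives, with these exceptions. Without the low-count filter 7 members were called in CNA-PpHOX32, against 4. The 4 called response differences became 7 with DESeq2's Wald test, 9 without the filter and 8 with only the compared lines, and the 11 called mock differences became 7 with only the compared lines. With 1 library left out, called members ranged from 5 to 6 in CNA, 5 to 7 in PHB, 2 to 3 in CNA-SDdelta, 4 to 5 in PHB-SDdelta, 4 to 6 in CNA-KnC3HDZ, 5 to 6 in CNA-KnC3HDZ_8m, 4 to 7 in CNA-SmHOX32 and 3 to 6 in CNA-PpHOX32. Response differences ranged from 1 (without CNA-KnC3HDZ induced replicate 2) to 5, and mock differences from 7 (without CNA mock replicate 1) to 11. The cause was not tested.

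Signs turned only for values that were not called. BBX22 in CNA-KnC3HDZ_8m was -0.0522 with DESeq2 size factors, -0.0523 with DESeq2's Wald test, -0.00392 without the filter and -0.0583 after thinning. BBX32 in PHB-SDdelta was -0.00145 with DESeq2 size factors, COL1 in CNA was -0.0337 without the filter, and COL1 in CNA-SDdelta was 0.00218 after thinning. With a library left out, COL1 ranged from -0.118 to 0.230 in CNA and -0.109 to 0.00745 in CNA-SDdelta, BBX22 from -0.829 to 0.222 in PHB, -0.294 to 0.327 in PHB-SDdelta and -0.341 to 0.178 in CNA-KnC3HDZ_8m, BBX32 from -5.76 to 4.87 in PHB and -0.592 to 1.81 in PHB-SDdelta, and BBX17 from -7.23 to 1.60 in CNA-PpHOX32.

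The replicate numbers are shared only as numbers, and 11 of 24 pairs correlated best with their own number. With the replicate block, 64 of 70 induction values kept their side of the threshold and direction, 2 gained a call, and 4 uncalled values turned: COL1 in CNA (-0.0157), BBX32 in PHB (0.137), BBX22 in PHB-SDdelta (0.0466) and BBX22 in CNA-KnC3HDZ_8m (-0.0284). Depth limits BBX16, BBX17 and BBX32, whose induced libraries were at or near the floor of 3 counts in some lines.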
